A study of Mus musculus with 71 samples.

Results

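The subunits of the GABA-A receptor were followed in whole brain RNA of male mice. The mice belonged to one of 3 inbred strains, namely DBA/2J, AKR/J or C57BL/6J. The members were the 7 genes Gabra2, Gabra3, Gabra4, Gabra5, Gabrb1, Gabrb2 and Gabrd, of 18193 named genes on the array, and all 21 probe sets that the platform annotation assigns to them, of 45037 tested, were kept with no filter on low values. Mice of 12 to 13 weeks either stayed undisturbed in the home cage (controls) or were kept awake for 6 h up to the time of killing, which was ZT0, ZT6, ZT12 or ZT18, in hours after light onset. Each Affymetrix array carried RNA pooled from 3 mice, with 9 mice per group. There were 24 combinations of strain, treatment and time. All had 3 arrays except sleep-deprived AKR/J mice at ZT18 with 2, so 36 arrays were controls and 35 sleep-deprived. Values are log2 signals per probe set. All comparisons are differences in log2 signal between groups, and since probe sets differ in how well they bind, the level of one probe set is not set against that of another. A probe set was called when its adjusted p from limma, a linear model fitted across all probe sets, was under 0.05. The p-values measure the spread between pools of mice. In whole brain, fewer cells of a type and less RNA per cell cannot be told apart.

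The GABA-A receptor is a chloride channel of several subunits that opens when it binds GABA, the main inhibitory transmitter of the brain. Alpha and beta subunits form the GABA binding site, and the alpha subunit sets much of the receptor's sensitivity to benzodiazepines and its place on the neuron. Receptors with the alpha 4 or delta subunit lie largely outside synapses and carry a steady, tonic inhibition. Many sedative and hypnotic drugs act on these receptors.

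Gabra2, encoding alpha 2, and Gabrb2, encoding beta 2, carried the largest strain differences of the 21 probe sets, so the 250 bases before an annotated start of each are shown. Gabra2 has 1 such start in the table used, and Gabrb2 has 3, of which the first is shown. Both come from RefSeq (GRCm38.p6), whose mouse reference is the C57BL/6J strain, and are read 5′ to 3′ on the strand of the gene. Capitals mark TATAAA.
Gabra2, chr5:71095850-71096099, minus strand: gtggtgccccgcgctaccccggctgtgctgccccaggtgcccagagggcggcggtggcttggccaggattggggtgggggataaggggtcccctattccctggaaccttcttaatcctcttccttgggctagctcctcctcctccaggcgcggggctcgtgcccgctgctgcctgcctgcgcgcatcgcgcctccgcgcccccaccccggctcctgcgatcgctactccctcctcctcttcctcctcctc
Gabrb2, chr11:42420190-42420439, plus strand: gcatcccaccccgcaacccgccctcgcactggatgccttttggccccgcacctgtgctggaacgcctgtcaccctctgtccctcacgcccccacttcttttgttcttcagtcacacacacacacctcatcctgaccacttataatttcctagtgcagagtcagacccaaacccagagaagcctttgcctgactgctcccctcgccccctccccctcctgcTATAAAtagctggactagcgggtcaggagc
The Gabra2 window had a GC content of 70.0% and no TATAAA, and the Gabrb2 window shown had 58.8% GC with TATAAA beginning 30 bases before the start. The windows of the other 2 Gabrb2 starts had 54.0% and 36.8% GC and no TATAAA. Windows were found for 6 of the 7 genes, 10 windows in all. TATAAA, searched on both strands, was in 3 of the 10 member windows and in 12.4% of all 32851 windows of that length. The other 2 of the 3 were Gabra3 windows that overlap and hold the same site, 123 and 235 bases before their starts. The cAMP response element TGACGTCA was in none of the 10 (1.55% of all windows), as was the E-box CACGTG (6.02%) and the Egr1 motif GCGTGGGCG (0.536%). Absence of these letters says nothing about binding by the factors. The sequences of the other strains, and the sequences of the probes, were not used here.

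Array medians lay between 5.65 and 5.71 log2. Neuronal markers had mean signals from 9.36 to 13.44, and 72 of 74 listed markers of brain and neighbouring cell types were measured. Of the 21 member probe sets, 17 had a mean above 5.68, the median over all probe sets. The other 4 were 1420299_at and 1449807_x_at of Gabra2, 1443834_at of Gabrb1 and 1457763_at of Gabrd, whose means of 3.27, 3.75, 4.71 and 3.85 were low on this scale. 6 arrays stood apart on the Dap and Thr control probe sets of the array, with a mean of 6.07 or less against 6.48 or more on the other 65. They were replicate 3 of the AKR/J controls at ZT0 and ZT6 and of the C57BL/6J controls at ZT0, replicate 3 of the sleep-deprived C57BL/6J mice at ZT0, and replicates 1 and 3 of those at ZT6. A member call that was lost with these arrays as a block or left out is marked as such. Other values are given with all arrays unless stated.

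The first question was how the strains differ. In controls, averaged over the 4 times, 8 of the 21 probe sets were called between C57BL/6J and AKR/J, 1 higher and 7 lower in C57BL/6J, where 22.9% of all probe sets were called. Between DBA/2J and AKR/J, 9 were called, 2 higher and 7 lower in DBA/2J, against 17.3% of all. Between DBA/2J and C57BL/6J, 14 were called, 8 higher and 6 lower in DBA/2J, against 23.2% of all. The median size of the DBA/2J minus C57BL/6J difference was 0.20 log2 over the 21 probe sets and 0.06 over all. For the other 2 pairs the medians were close to those of all probe sets, 0.06 against 0.06 for C57BL/6J minus AKR/J and 0.07 against 0.05 for DBA/2J minus AKR/J. The members were chosen with earlier results known, and many of the 21 probe sets are of Gabra2 and Gabrb2. These counts and medians thus give no support of their own. As means of their probe sets, Gabra2 and Gabrb2 differed by 0.79 and -0.59 in DBA/2J minus C57BL/6J. Gabra3, Gabra4, Gabra5, Gabrb1 and Gabrd differed by -0.01, -0.03, -0.20, -0.08 and -0.03. Cell-type markers also differed between strains. Of all genes, on their probe set of highest mean, 25.0%, 18.4% and 25.6% were called in these 3 comparisons. All 5 cerebellar markers, 1 of them the GABA-A subunit Gabra6, and all 5 microglial markers were called between C57BL/6J and AKR/J, with medians of -0.12 and -0.18. Between DBA/2J and AKR/J 4 and 5 of them were called, with medians of -0.12 and -0.21. For oligodendrocyte and hypothalamic markers 4 of 5 and 3 of 4 were called in the first pair (0.16 and -0.20), and 2 and 2 in the second (-0.02 and 0.08). Pituitary markers had medians of 0.46 and 1.26, with 0 called. Of the 6 neuron markers 1 was called in each of these pairs, with medians of -0.04 and -0.03. Between DBA/2J and C57BL/6J, all 5 oligodendrocyte markers (median -0.22), all 4 hypothalamic (0.29), 4 of 5 cerebellar (-0.07) and 3 of 6 GABA neuron markers (0.05) were called. The medians of the neuron and microglial markers there were -0.05 and -0.03. The part of such markers in the member differences was not tested.

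**Figure D1:**
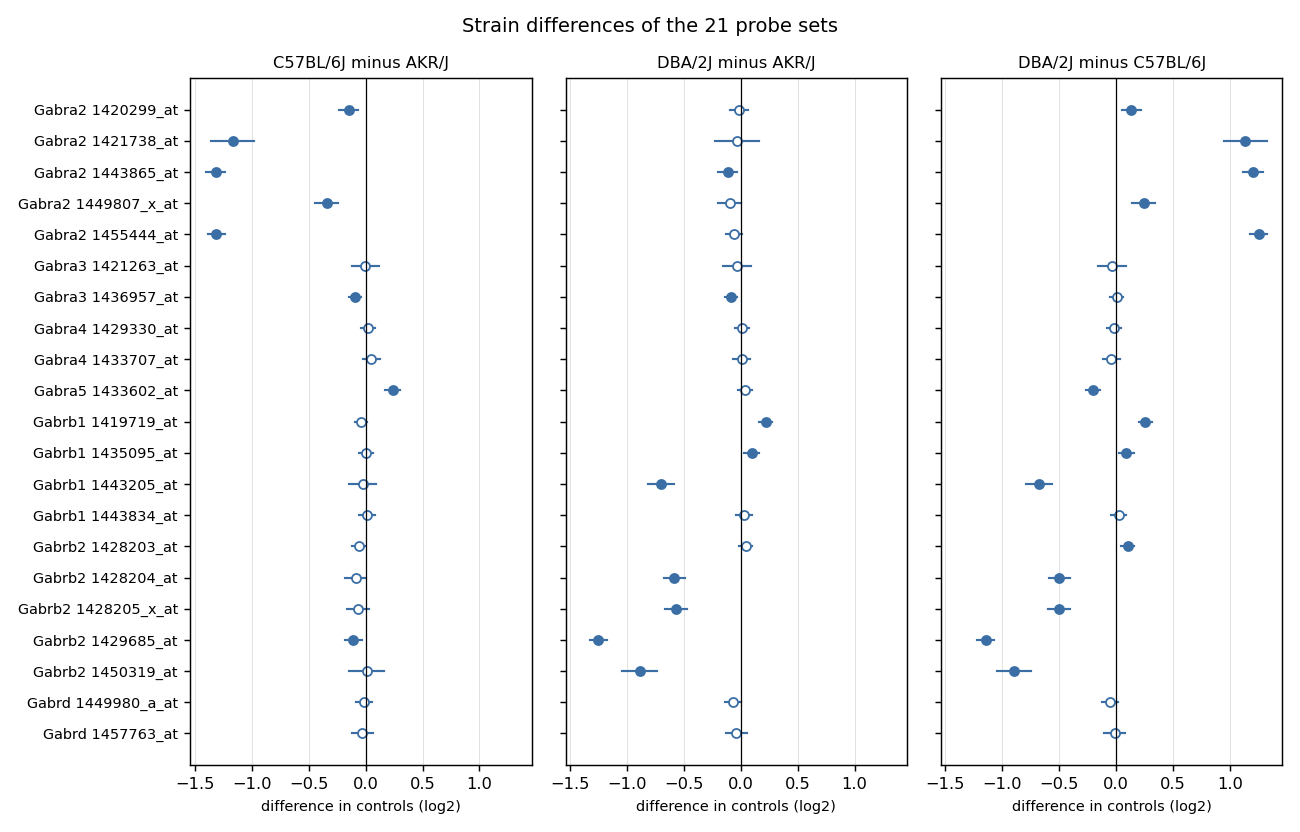
Strain differences in controls for each of the 21 probe sets, in log2 units, with 95% confidence intervals from limma (12 control arrays per strain). Filled points were called. The Gabra2 probe sets lie below 0 in C57BL/6J against AKR/J, while 4 of the 5 Gabrb2 probe sets and Gabrb1 1443205_at lie below 0 in DBA/2J against AKR/J.

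Gabra2 was lower in C57BL/6J than in both other strains. Alpha 2 is the subunit of receptors on the axon initial segment and of many forebrain synapses. On 1455444_at the 12 control arrays of C57BL/6J read from 7.22 to 7.65 (median 7.38), those of AKR/J from 8.59 to 8.89 (median 8.75) and those of DBA/2J from 8.52 to 8.87 (median 8.70). The highest C57BL/6J array lay below the lowest array of each other strain. C57BL/6J was lower than AKR/J by a difference of -1.31 ± 0.04 log2 (SE, limma adjusted p = 2.37e-37), which leaves 40.3% of the AKR/J signal. This was place 274 of 45037 by size. DBA/2J was 1.25 ± 0.04 above C57BL/6J (limma adjusted p = 1.79e-36).

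The other Gabra2 probe sets went the same way by unequal amounts. On 1443865_at the C57BL/6J controls read from 6.56 to 7.03, the AKR/J controls from 7.97 to 8.27 and the DBA/2J controls from 7.78 to 8.11. The difference of C57BL/6J from AKR/J was -1.32 ± 0.04 (limma adjusted p = 6.64e-34). On 1421738_at, where arrays of a group were more scattered, the ranges were 6.12 to 7.21 in C57BL/6J, 7.30 to 8.20 in AKR/J and 7.41 to 8.11 in DBA/2J, with a difference of -1.17 ± 0.09 from AKR/J (limma adjusted p = 1.14e-15). The 3 probe sets thus gave C57BL/6J between 40.1% and 44.5% of the AKR/J signal. The low-signal probe sets 1449807_x_at and 1420299_at gave differences of -0.34 and -0.15, both called (limma adjusted p = 1.2e-07 and 0.00408). An _x_at probe set can bind several transcripts. As the mean of its 5 probe sets, Gabra2 differed by -0.86 ± 0.03 (limma adjusted p = 2.84e-32).

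Over all arrays of both treatments, C57BL/6J lay below both other strains with no overlap on 1443865_at and 1455444_at. Among all probe sets, 1.34% separated C57BL/6J in this way, above or below. In each of the 8 groups of treatment and time, C57BL/6J was below AKR/J on 1455444_at, by -1.40 to -0.88. DBA/2J and AKR/J were near each other. Their difference in controls was called only for 1443865_at, at -0.12 ± 0.04 (limma adjusted p = 0.0491), and that call was lost in 51 of 81 alternative analyses.

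**Figure D2:**
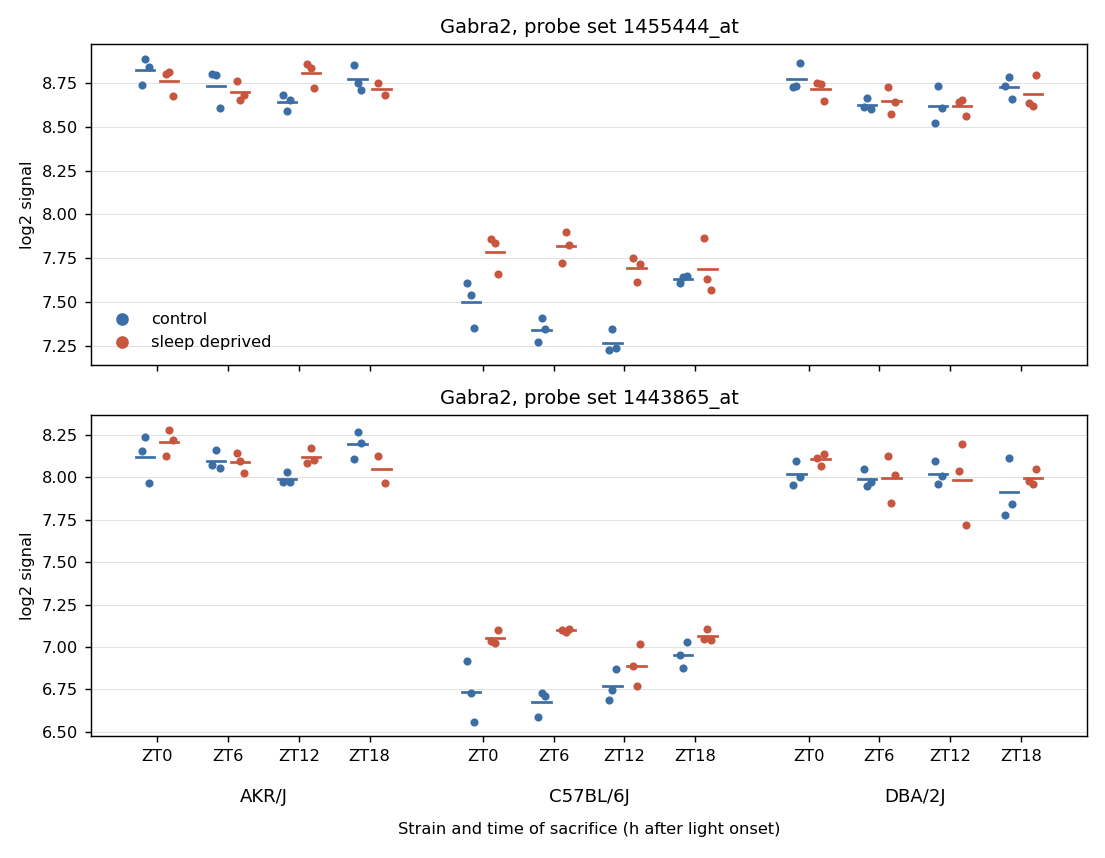
Log2 signal of the Gabra2 probe sets 1455444_at and 1443865_at on each of the 71 arrays (points) with group means (lines), by strain, time and treatment. All C57BL/6J arrays lie below all AKR/J and DBA/2J arrays, and in C57BL/6J the sleep-deprived arrays at ZT0, ZT6 and ZT12 lie above the controls of the same time on 1455444_at.

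Gabra5, encoding alpha 5, the subunit of tonic receptors of hippocampal pyramidal cells, was higher in C57BL/6J. The C57BL/6J controls read from 8.51 to 8.64 (median 8.57), the AKR/J controls from 8.24 to 8.46 (median 8.30) and the DBA/2J controls from 8.21 to 8.49 (median 8.36). The C57BL/6J control arrays did not overlap those of the other strains. The difference from AKR/J was 0.24 ± 0.03 (limma adjusted p = 1.37e-08), and DBA/2J lay below C57BL/6J by -0.20 ± 0.03 (limma adjusted p = 8.65e-07). Gabra5 thus differed in the opposite direction to Gabra2, on its single probe set 1433602_at.

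Gabra3 and Gabra4 showed small differences or none called. Gabra3, encoding alpha 3, had 9.14 to 9.34 in AKR/J controls on 1436957_at, 9.06 to 9.31 in C57BL/6J and 9.05 to 9.27 in DBA/2J, ranges that overlap. C57BL/6J and DBA/2J differed from AKR/J by -0.09 ± 0.03 each (limma adjusted p = 0.00984 and 0.0209). Without the 6 arrays apart on the Dap and Thr controls the DBA/2J difference was -0.08 and not called. The DBA/2J call was lost in 5 of 81 alternative analyses and the C57BL/6J call in 1, with only the compared groups. Its other probe set, 1421263_at, was not called in controls in any pair of strains. Both Gabra4 probe sets, 1429330_at and 1433707_at, gave differences from -0.04 to 0.05 between control strains, none called. Gabra4 encodes the alpha subunit that often pairs with delta outside synapses.

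Gabrb2 encodes beta 2, a subunit of the most abundant GABA-A receptors of the brain, and it was lower in DBA/2J on 4 of its 5 probe sets. On 1429685_at the DBA/2J controls read from 9.90 to 10.25 (median 10.09), the AKR/J controls from 11.18 to 11.48 (median 11.34) and the C57BL/6J controls from 11.07 to 11.34 (median 11.26). The DBA/2J arrays were all below those of the other strains. The difference from AKR/J was -1.25 ± 0.04 (limma adjusted p = 1.19e-35), place 295 of 45037 by size and 42.0% of the AKR/J signal, and that from C57BL/6J was -1.14 ± 0.04 (limma adjusted p = 9.16e-34). C57BL/6J minus AKR/J was also called on this probe set in controls, at -0.11, a call lost in 5 of 81 alternative analyses.

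The remaining Gabrb2 probe sets ranged from a clear difference to almost none. On 1450319_at the DBA/2J controls read from 7.55 to 8.13 and the AKR/J controls from 8.36 to 9.00, a difference of -0.89 ± 0.08 (limma adjusted p = 5.48e-15). The probe sets 1428204_at and 1428205_x_at, which the platform annotation ties to the same source sequence as 1428203_at, gave -0.58 ± 0.04 and -0.57 ± 0.05 (limma adjusted p = 1.5e-16 and 6.63e-15). On 1428203_at itself the DBA/2J controls read from 10.68 to 10.89 and the AKR/J controls from 10.61 to 10.84, with overlap. There the difference was 0.04, with a 95% interval of -0.01 to 0.10 (limma adjusted p = 0.359), and DBA/2J lay 0.10 ± 0.03 above C57BL/6J (limma adjusted p = 0.0048). The difference from C57BL/6J on this probe set was not called in the sleep-deprived arrays. As the mean of its 5 probe sets, Gabrb2 differed from AKR/J by -0.65 ± 0.02 (limma adjusted p = 2.44e-29).

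The disagreement between probe sets of Gabrb2 was larger than the spread between arrays. Within each control array the value of 1428203_at was subtracted from that of 1429685_at, which serves only to compare strains. The result ran from -0.84 to -0.48 in DBA/2J, from 0.34 to 0.81 in AKR/J and from 0.27 to 0.70 in C57BL/6J, with 12 arrays each. The DBA/2J range did not overlap that of either other strain. A two-sided permutation test of 100000 resamples gave p = 1e-05 for each, the smallest value these can give. Adjustment over the 4 tests of this kind left it the same. The pair was chosen after its values were seen, as the lowest and the highest probe set of the gene by DBA/2J minus AKR/J. The test therefore gives no support of its own. Whether sequence differences between strains under the probes, or transcript forms that the probe sets share unequally, move these values was not tested.

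**Figure D3:**
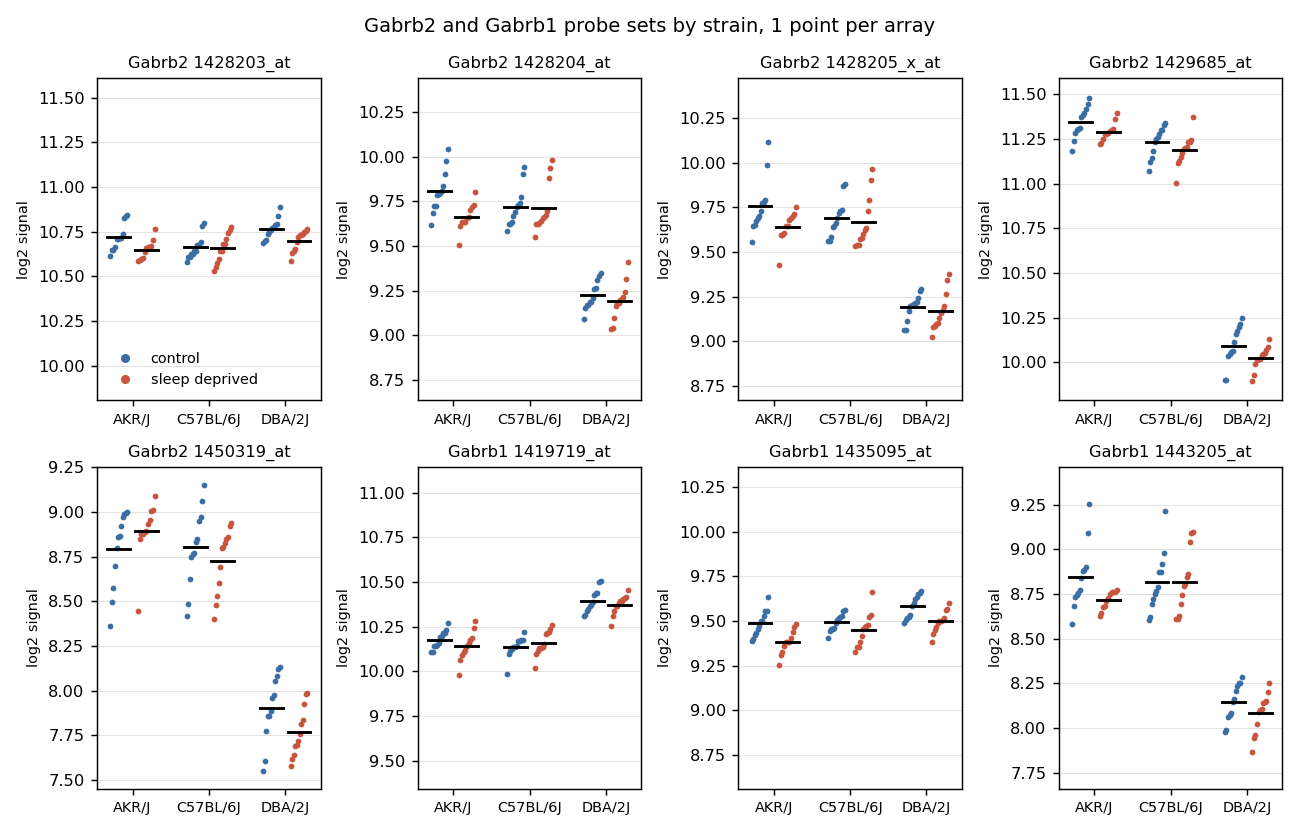
Log2 signal of the 5 Gabrb2 probe sets and 3 of the 4 Gabrb1 probe sets by strain, 1 point per array, controls and sleep-deprived arrays side by side, with black lines at the means; each panel spans the same height in log2 units. DBA/2J lies lower on 1428204_at, 1428205_x_at, 1429685_at, 1450319_at and Gabrb1 1443205_at, and overlaps the other strains on 1428203_at.

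Gabrb1, encoding beta 1, split between its probe sets. On 1443205_at the DBA/2J controls read from 7.98 to 8.29, the AKR/J controls from 8.58 to 9.26 and the C57BL/6J controls from 8.60 to 9.22, with no overlap. The difference of DBA/2J from AKR/J was -0.70 ± 0.06 (limma adjusted p = 2.11e-15). The 6 arrays apart on the Dap and Thr controls read 9.04 to 9.26 here, above the 8.58 to 8.98 of the other 41 arrays of these 2 strains, and with these arrays as a block the difference was -0.63. On 1419719_at DBA/2J was instead higher, with 10.31 to 10.51 against 10.11 to 10.27 in AKR/J controls and no overlap between them. That difference was 0.22 ± 0.03 (limma adjusted p = 4.45e-09).

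The 2 Gabrb1 probe sets thus placed DBA/2J on opposite sides of AKR/J. The value of 1419719_at was subtracted from that of 1443205_at within each control array. The result was -2.25 ± 0.11 in DBA/2J (SD, n = 12), -1.33 ± 0.19 in AKR/J and -1.32 ± 0.18 in C57BL/6J. The same permutation test gave p = 1e-05 for DBA/2J against AKR/J and for DBA/2J against C57BL/6J. AKR/J and C57BL/6J were not tested against each other. The 2 probe sets were again the lowest and the highest of the gene by DBA/2J minus AKR/J, so this test gives no support of its own either. Another probe set, 1435095_at, was higher in DBA/2J than in AKR/J by 0.10 ± 0.03 (limma adjusted p = 0.0277), and the low-signal 1443834_at was not called. The call of 1435095_at was lost in 7 of 81 alternative analyses, with adjusted p of 0.0589 by limma when arrays were centred on their medians and 0.0579 with only the compared groups. On all arrays of both treatments, DBA/2J lay below both other strains with no overlap on 5 probe sets, 4 of Gabrb2 and 1443205_at of Gabrb1, where 1.18% of all probe sets separated DBA/2J above or below.

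Gabrd, encoding delta, which replaces the gamma subunit in tonic receptors of dentate and cerebellar granule cells, was not called between strains in controls. On 1449980_a_at the controls read from 8.59 to 8.87 in AKR/J, 8.56 to 8.83 in C57BL/6J and 8.43 to 8.77 in DBA/2J. The 3 differences ran from -0.07 to -0.02. The low-signal 1457763_at gave differences from -0.04 to -0.01.

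The strain differences were measured again in the sleep-deprived arrays, which come from other mice. There 7 of the 21 probe sets were called between C57BL/6J and AKR/J (24.8% of all), 9 between DBA/2J and AKR/J (15.6%) and 11 between DBA/2J and C57BL/6J (25.5%). Some control calls were not made here. They were Gabra2 1420299_at and Gabra3 1436957_at between C57BL/6J and AKR/J, and Gabra2 1443865_at between DBA/2J and AKR/J. Between DBA/2J and C57BL/6J they were Gabra2 1420299_at, Gabrb1 1435095_at and Gabrb2 1428203_at. Gabra2 1455444_at was at 49.9% and 1443865_at at 47.0% of the AKR/J signal in C57BL/6J (limma adjusted p = 5.44e-31 and 2.98e-29). Gabrb2 1429685_at was lower in DBA/2J than in AKR/J by -1.27 ± 0.04 and 1450319_at by -1.12 ± 0.08 (limma adjusted p = 2.77e-35 and 1.73e-18), and Gabra5 was 0.28 ± 0.03 higher in C57BL/6J than in AKR/J (limma adjusted p = 4.85e-10). Gabra3 1421263_at was called here, at -0.18 for C57BL/6J and -0.21 for DBA/2J against AKR/J (limma adjusted p = 0.0237 and 0.0123). The 3 sleep-deprived C57BL/6J arrays apart on the Dap and Thr controls read 7.77, 7.49 and 7.80 here, all below the 7.88 to 8.11 of the other 9 and the 7.90 to 8.29 of the 11 AKR/J arrays. Without the arrays apart the C57BL/6J difference was -0.08 and not called. No array apart was a sleep-deprived AKR/J or DBA/2J array, so the DBA/2J difference of -0.21 could not change. The C57BL/6J call of Gabra3 1421263_at was lost in 7 of 81 alternative analyses and its DBA/2J call in 1, without replicate 1 of AKR/J at ZT18. Gabrb2 1429685_at was also called for C57BL/6J minus AKR/J here, at -0.11. With the 6 arrays apart as a block it was -0.07 and without them -0.06, not called in either. That call was lost in 8 of 81 alternative analyses.

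The second question was how sleep deprivation moved these genes. Averaged over strains and times, 5 of the 21 probe sets were called, 2 higher and 3 lower, where 17.3% of all probe sets were called. With the 6 arrays apart on the Dap and Thr controls as a block the count was 8, and without them 4. Gabra2 1443865_at and 1455444_at rose by 0.10 each (SE 0.02, limma adjusted p = 0.00236 and 0.000268). Gabra5 fell by 0.07, Gabrb1 1435095_at by 0.08 and Gabrb2 1428203_at by 0.05 (limma adjusted p = 0.00551, 0.0014 and 0.0351). The Gabrb2 call was lost in 14 of 80 alternative analyses, with -0.04 without the 6 arrays. The median size over the 21 was 0.05 log2 and that over all probe sets 0.03.

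Within single strains few members were called. In C57BL/6J 2 were called, both of Gabra2, where 6.45% of all probe sets were called. In AKR/J 2 were called, Gabrb1 1435095_at at -0.11 ± 0.03 and Gabrb2 1428204_at at -0.15 ± 0.05 (limma adjusted p = 0.0386 and 0.0472), against 5.85% of all. These calls were lost in 14 and 39 of 81 alternative analyses. With the 6 arrays apart on the Dap and Thr controls as a block the Gabrb1 difference was -0.10 and not called, and without them the Gabrb2 difference was -0.10 and not called. In DBA/2J limma called 0, where 6.90% of all probe sets were called. Without adjustment, 6 members had a p under 0.05 there.

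**Figure D4:**
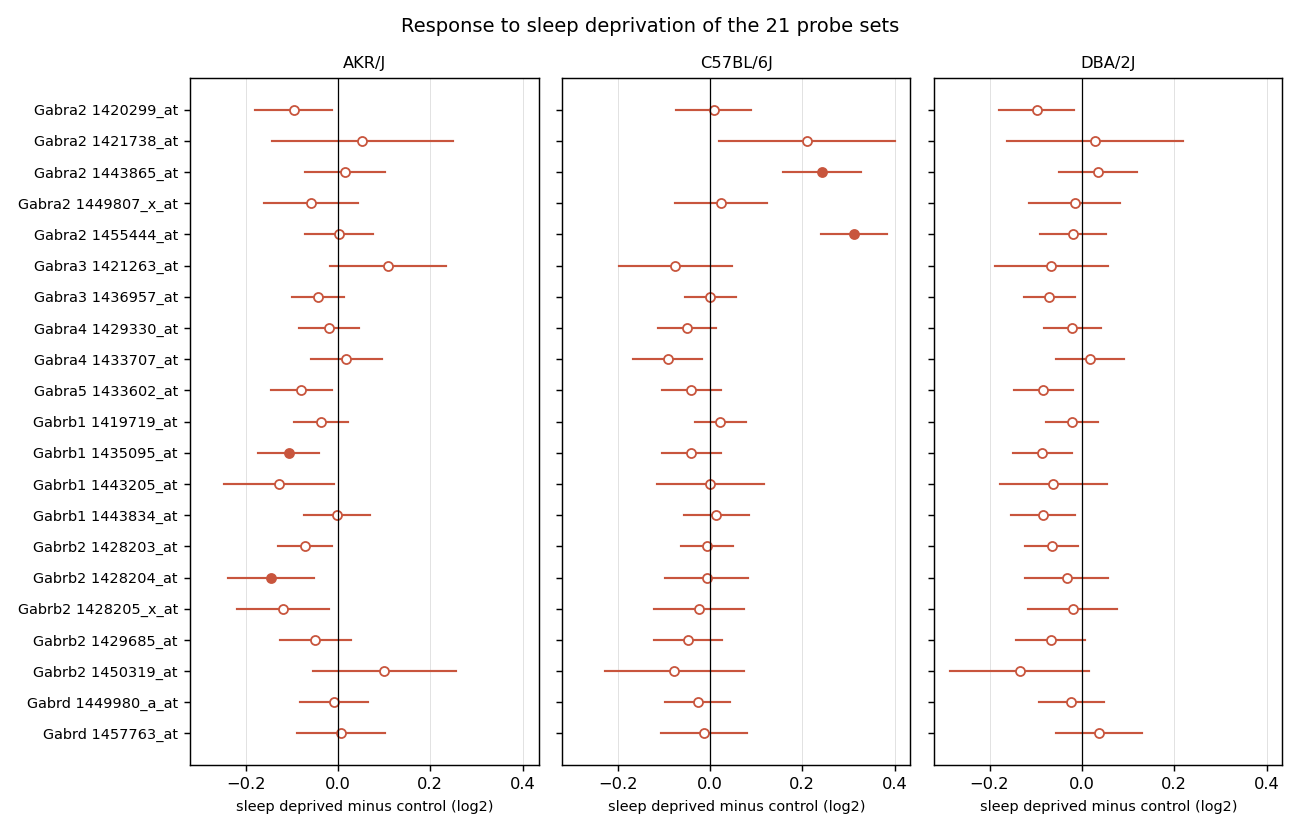
Sleep-deprived minus control signal of each of the 21 probe sets in each strain, in log2 units, averaged over the 4 times, with 95% confidence intervals from limma (12 control arrays per strain, 12 sleep-deprived arrays in C57BL/6J and DBA/2J and 11 in AKR/J). Filled points were called. The largest responses are those of Gabra2 1455444_at (0.31) and 1443865_at (0.24) in C57BL/6J.

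The rise of Gabra2 1455444_at in C57BL/6J, of 0.31 ± 0.04, took place in the strain with the lowest level and left it below the others. At ZT6 the 3 control arrays read 7.27, 7.41 and 7.34, and the sleep-deprived arrays 7.73, 7.90 and 7.83. At ZT12 the controls read 7.22, 7.34 and 7.24, and the sleep-deprived arrays 7.75, 7.62 and 7.72. In both the groups did not overlap, with differences of 0.48 ± 0.07 and 0.43 ± 0.07 (limma adjusted p = 1.18e-05 and 7.84e-05, with 7.47% and 2.14% of all probe sets called).

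At the other times the difference was smaller and not called. At ZT0 the controls read 7.61, 7.54 and 7.35, and the sleep-deprived arrays 7.86, 7.84 and 7.66, again without overlap. The difference was 0.28 ± 0.07 (limma adjusted p = 0.0553), where 0.331% of all probe sets were called. At ZT18 the controls read 7.61, 7.64 and 7.65, and the sleep-deprived arrays 7.87, 7.63 and 7.57, which overlap, with a difference of 0.06 ± 0.07 and 0.00222% of all probe sets called. The C57BL/6J controls were at their highest at ZT18, while the sleep-deprived means stayed between 7.69 and 7.82 at the 4 times.

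The response of 1455444_at in C57BL/6J exceeded that in AKR/J by 0.31 ± 0.05, and the response in DBA/2J minus that in C57BL/6J was -0.33 ± 0.05 (limma adjusted p = 0.00341 and 0.00089). Such differences were called for 0.0111% and 0.00666% of all probe sets. Between DBA/2J and AKR/J no member's response was called by limma, where 0.0111% of all probe sets were called. Without adjustment, 1 of the 21 had a p under 0.05. In the test over the 3 strains together, 1455444_at was 1 of 10 probe sets called, 0.0222% of all. With the 6 arrays apart on the Dap and Thr controls as a block the rise in C57BL/6J was 0.33, and without them 0.33. For the mean of the 5 Gabra2 probe sets the rise was 0.16 ± 0.03 (limma adjusted p = 5.25e-05), and the test over the 3 strains together was not passed.

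The other Gabra2 probe sets followed in part. On 1443865_at the C57BL/6J controls ranged from 6.56 to 7.03 and the sleep-deprived arrays from 6.77 to 7.10, a rise of 0.24 ± 0.04 (limma adjusted p = 4.69e-05), of 0.26 with the 6 arrays as a block and of 0.21 without them. At ZT6 its difference was 0.42 ± 0.08 (limma adjusted p = 0.000906). Its response did not pass the test between strains (limma adjusted p = 0.229). On 1421738_at the difference was 0.21 ± 0.09 and not called (limma adjusted p = 0.214). There the 3 sleep-deprived arrays apart on the Dap and Thr controls read 7.32, 7.38 and 7.39, above the 6.29 to 7.11 of the other 9, and their part in this difference was not tested. In AKR/J and DBA/2J no Gabra2 probe set was called by limma, and 1 of the 5, 1420299_at, had an unadjusted p under 0.05 in each of these strains (differences of -0.10 in both, limma adjusted p = 0.19 and 0.163).

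**Figure D5:**
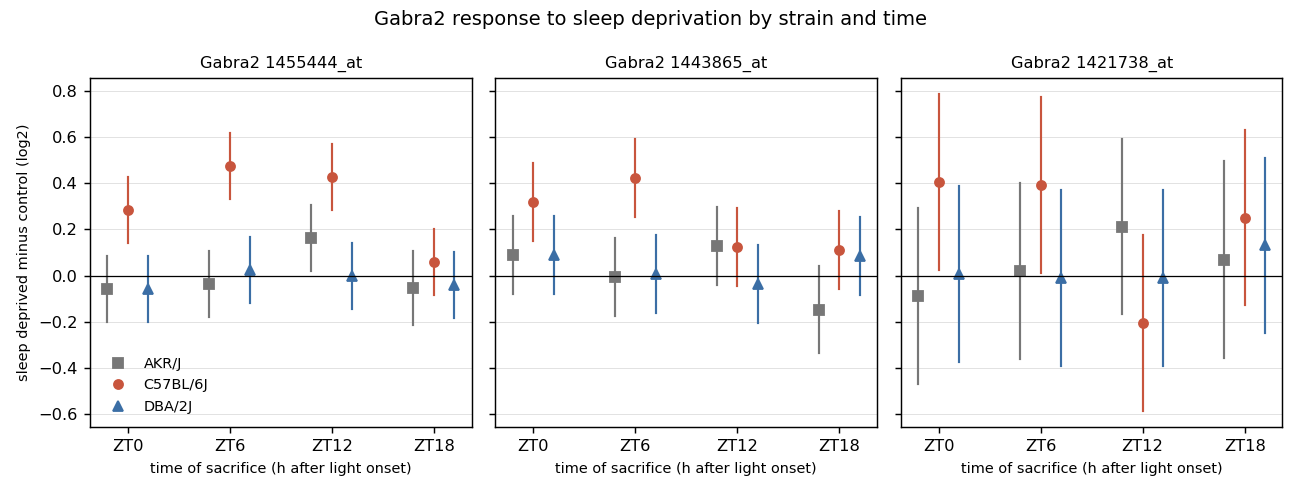
Sleep-deprived minus control log2 signal of 3 Gabra2 probe sets by strain and time, with 95% confidence intervals from limma (3 arrays per group, 2 for sleep-deprived AKR/J at ZT18). On 1455444_at the C57BL/6J differences at ZT0, ZT6 and ZT12 (0.28, 0.48 and 0.43) have intervals above 0, and that at ZT18 (0.06) does not.

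For sleep deprivation in C57BL/6J, 8.55% of all genes were called on their probe set of highest mean. Among cell-type markers, 5 of the 72 measured were called. None was among the 6 general neuron markers, whose mean log2 signal per array lay between 11.88 and 11.99 in controls and between 11.87 and 11.96 in sleep-deprived mice, and 1 was among the 6 markers of GABA neurons (10.32 to 10.45 and 10.36 to 10.45). Pituitary markers varied most, from 6.69 to 10.13 in controls and from 7.35 to 9.92 in sleep-deprived mice of this strain, and their part in the results was not tested.

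The third question was time of day. In controls, 2 of the 21 probe sets were called, where 11.7% of all were. Gabra2 1455444_at averaged over strains was at 8.37 at ZT0, 8.23 at ZT6, 8.18 at ZT12 and 8.38 at ZT18, a range of 0.20 (limma F test, adjusted p = 0.000193). The lowest mean fell at ZT12 in all 3 strains, in DBA/2J barely below that at ZT6. The DBA/2J controls read 8.61, 8.66 and 8.60 at ZT6 and 8.52, 8.73 and 8.61 at ZT12. None of the other Gabra2 probe sets was called for time of day. On 1443865_at, lowest at ZT6, and 1421738_at, lowest at ZT12, the limma F test gave adjusted p = 0.429 and 0.391. Gabrd 1449980_a_at was at 8.62, 8.76, 8.64 and 8.61, highest at ZT6 in each strain, with a range of 0.14 (limma F test, adjusted p = 0.0256). The Gabrd call was lost in 4 of 81 alternative analyses, each without 1 ZT6 control array (AKR/J replicate 1, C57BL/6J replicate 2, DBA/2J replicate 2 or 3), with ranges of 0.13 to 0.14.

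In sleep-deprived mice no member was called for time of day by limma, where 1.42% of all probe sets were called, and 2 members had an unadjusted p under 0.05. Nor was any called for a change of the response with time, with 1 at an unadjusted p under 0.05 and 1.40% of all called, or for a strain difference in the daily pattern of controls, with 1 at an unadjusted p under 0.05 and 0.0222% of all called. For Gabra2 1455444_at the mean response over strains was 0.06, 0.15, 0.20 and -0.01 at ZT0, ZT6, ZT12 and ZT18 (limma F test, adjusted p = 0.125).

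The other genes of the system were counted on the probe set of highest mean per gene. Of 12 other GABA-A subunits 8 were measured. Between control strains 2, 1 and 2 of them were called (C57BL/6J minus AKR/J, DBA/2J minus AKR/J and DBA/2J minus C57BL/6J), where 25.0%, 18.4% and 25.6% of all genes were. The medians of the 8 were -0.02, -0.06 and -0.03 log2, and those of all genes -0.02, -0.004 and 0.02. Gabra6, encoding the alpha 6 subunit of cerebellar granule cells, was lower in C57BL/6J than in AKR/J by -0.41 ± 0.03 and lower in DBA/2J than in AKR/J by -0.10 ± 0.03 (limma adjusted p = 5.04e-16 and 0.0189). Gabrg1, encoding gamma 1, was lower in C57BL/6J than in AKR/J by -0.09 ± 0.03 (limma adjusted p = 0.0183). It also fell by 0.07 ± 0.02 with sleep deprivation over all strains (limma adjusted p = 0.00558), the 1 called of 8, where 22.1% of all genes were called.

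Of 20 genes for receptor scaffolds, trafficking and assembly, 19 were measured, and 3, 4 and 4 were called in the same strain comparisons (25.0%, 18.4% and 25.6% of all genes), of which 2, 3 and 3 were higher in the strain named first. The medians of the 19 were -0.004, -0.007 and 0.01. Hap1, which helps return internalized receptors to the surface, was higher than in AKR/J by 0.37 ± 0.03 in C57BL/6J and by 0.62 ± 0.03 in DBA/2J (limma adjusted p = 8.9e-14 and 5.38e-23). Slitrk3, an adhesion protein of inhibitory synapses, was higher than in AKR/J by 0.23 in C57BL/6J and 0.26 in DBA/2J. Plcl2, a phospholipase-related protein that binds phosphatases acting on the receptor, was lower in C57BL/6J than in AKR/J by -0.15, and Kif5a, a motor protein that carries receptors along microtubules, was lower in DBA/2J by -0.17 against each other strain. With sleep deprivation 3 of the 19 were called, against 22.1% of all genes. Plcl2 and Plcl1 rose by 0.09 each and Clptm1, which holds receptors in the endoplasmic reticulum, fell by 0.05. In C57BL/6J alone 2 of the 19 were called, Plcl1 at 0.11 and Clptm1 at -0.07, where 8.55% of all genes were.

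Of 16 genes for GABA synthesis, transport, chloride balance and GABA-B receptors, 13 were measured and 2, 3 and 3 were called between strains (25.0%, 18.4% and 25.6% of all genes), of which 0, 1 and 2 were higher in the strain named first. The medians of the 13 were -0.03, -0.06 and 0.02. Gabbr1, a subunit of the metabotropic GABA-B receptor, was lower in DBA/2J by -0.30 ± 0.03 against AKR/J and by -0.27 ± 0.03 against C57BL/6J (limma adjusted p = 3.09e-11 and 4.09e-10). Slc12a2, a chloride importer, was lower than in AKR/J by -0.14 in C57BL/6J and -0.18 in DBA/2J. Kctd8, an auxiliary GABA-B subunit, was lower in C57BL/6J than in AKR/J by -0.22. With sleep deprivation 2 of the 13 fell, where 22.1% of all genes were called. They were the GABA transporter Slc6a13, by 0.08, and Slc12a2, by 0.06.

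Gabra2 lies on chromosome 5 with Gabrg1 on one side and Gabra4 and Gabrb1 on the other, and differences of the neighbours were smaller. Each neighbour, here and on chromosome 11, was taken on its probe set of highest mean. Among the 3 measured genes to each side, Gabrg1 was lower in C57BL/6J than in AKR/J by -0.09, and Guf1, Gnpda2, Cox7b2, Gabra4 and Gabrb1 gave differences from -0.04 to 0.07, none called. In DBA/2J minus C57BL/6J, Gabrg1, Cox7b2 and Gabrb1 were called at 0.10, 0.16 and 0.26 (limma adjusted p = 0.0149, 0.0457 and 2.51e-11), and Guf1, Gnpda2 and Gabra4 were not. The Gabrb1 value is that of 1419719_at, and 1443205_at of the same gene went the other way, at -0.67. On chromosome 11, next to Gabrb2, Ccng1 and Gabra6 were lower in DBA/2J than in AKR/J by -0.30 and -0.10 (limma adjusted p = 1.14e-09 and 0.0189). Pttg1 and Slu7 were higher by 0.34 and 0.10 (limma adjusted p = 2.47e-09 and 0.0055), and Nudcd2 and Atp10b were not called. Against C57BL/6J, DBA/2J was lower on Ccng1 by -0.11 and on Pttg1 by -3.46 but higher on Gabra6 by 0.31 (limma adjusted p = 0.0201, 9.34e-55 and 1.37e-11), and the other neighbours were not called. Pttg1 had its own larger strain difference, 3.79 ± 0.04 log2 higher in C57BL/6J than in AKR/J on an _s_at probe set (limma adjusted p = 7.7e-57).

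The genes whose pattern was most like these were found by Pearson correlation over the 24 group means, a description over groups that share strains. For Gabra2 1455444_at they were Tra2a (r = 0.986), Sox11 (0.979), Rpl14 (0.979), Prpf31 (0.978) and Bloc1s6 (0.977). With strain means subtracted they were Tmed5 (0.810), Ubn2 (0.808), Dynll1 (0.808), Rab14 (0.804) and Pofut2 (0.801). For Gabrb2 1429685_at they were Acer3, 4632427E13Rik and 2010315B03Rik (0.996 each), and Tia1 and Ssbp2 (0.995 each). With strain means subtracted they were Ep400 (0.852), Pnpt1 (0.762), Tmem30b (0.749), Lgr5 (0.731) and Hs3st4 (0.729).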

How the data were processed

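Whole-brain RNA was measured on 71 one-colour Affymetrix arrays, grouped by strain, treatment and time from the sample labels. The deposited values are log2 signals per probe set. Per the submitters' processing notes, the authors computed them with RMA, whose version and settings the sources used here do not give. Scanner files and detection calls were not used here. The root mean square difference between replicate arrays was 0.145 to 0.239 log2, so none was taken for a second deposit of another. Precision is limited by how many arrays there are.

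Of 45101 probe sets, 64 controls were left out and 45037 tested. The platform annotation gave 1 symbol for 34945, several for 932 and none here for 9160, and Entrez IDs linked 34741 to RefSeq genes of GRCm38.p6. No symbol of a member changed.

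A model of the 24 group means was fitted with limma 3.58.1 in R 4.3.3, with 47 residual degrees of freedom and two-sided tests. Adjustment was by Benjamini-Hochberg over the 45037 probe sets. The script was tested on simulated data. The members, the gene lists and the rule for named genes were chosen with earlier results of these data known. That rule takes every member probe set in every comparison, the values of Gabra2, Gabrb2 and called members, up to 4 called genes of smallest p per list, the 5 most correlated genes with and without strain means subtracted, and 3 measured neighbours on each side. Alternatives were quantile normalization, arrays centred on their medians, a filter on low probe sets, trend and robust moderation, array weights, a replicate block, only the compared groups, gene means, no _x_at or _s_at probe sets, and each array left out. Treating the 6 arrays apart on Dap and Thr as a block, or leaving them out, was added after seeing the data.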

Additional observations from a re-analysis of the deposited data

Results flagged for a closer look

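The response of Gabra2 1455444_at to sleep deprivation differed between strains. The limma F test over the 3 strains gave an adjusted p of 0.000369, with fitted responses of 0.00 in AKR/J, 0.31 in C57BL/6J and -0.02 in DBA/2J. The response in C57BL/6J minus that in AKR/J had a limma adjusted p of 0.00341, and that in DBA/2J minus that in C57BL/6J one of 0.00089. Over 80 alternatives of the F test the highest adjusted p was 0.00143. The response of 1443865_at of the same gene was not called as differing between strains in the F test.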

How the results depend on the processing

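Of the 70 called values of the member probe sets, over all comparisons, no difference changed sign in the alternatives run per probe set. The values of F tests are ranges and have no sign to change. The calls lost were 2 under quantile normalization, 5 under centring, 0 of 64 with only probe sets above the median level, 0 under trend and robust moderation, 1 under array weights, 2 under the replicate block, 1 of 62 without _x_at and _s_at probe sets, 7 of 64 with only the compared groups, and 136 of 4970 over all analyses that left out 1 array. In comparisons that do not use all groups, many of the arrays left out lay outside the groups compared. Leaving out such an array cannot move the difference, only the estimate of its spread and the adjustment. A low share of calls lost, here and in the counts of alternative analyses given above, is therefore limited evidence that a call is stable. With the 6 arrays low on Dap and Thr as a block 4 were lost, and without them 5. The large strain differences of Gabra2 and Gabrb2 and the rise of Gabra2 in C57BL/6J were kept in every alternative run per probe set, with 1455444_at between -1.33 and -1.29 for C57BL/6J minus AKR/J, 1429685_at between -1.28 and -1.23 for DBA/2J minus AKR/J, and the rise between 0.29 and 0.33. As means of all probe sets of the gene these differences were smaller, at -0.86 for Gabra2, -0.65 for Gabrb2 and 0.16 for the rise of Gabra2, and still called (limma adjusted p = 2.84e-32, 2.44e-29 and 5.25e-05). Losses fell on differences near the threshold, all of 0.21 or less in size as reported.

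Counts of called members moved by over 1.5 times as follows. For sleep deprivation in AKR/J (2 called) the count was 0 when centred, with only the compared groups and with the 6 arrays as a block, 1 with array weights, the replicate block, gene means and without the 6 arrays, and 0 to 2 when each array was left out. For DBA/2J (0 called) it was 1 with only bright probe sets and with array weights, and 0 to 1 when arrays were left out. Time of day in sleep-deprived mice (0) gave 1 with array weights, and time by sleep deprivation (0) gave 1 with array weights, 1 with the block and 0 to 1 when arrays were left out. Time of day in controls (2) gave 1 to 2 when arrays were left out. The count for sleep deprivation over all strains (5) was 8 with the 6 arrays as a block. The means of all probe sets of a gene were tested over 7 genes. They gave 2, 2 and 4 calls for C57BL/6J minus AKR/J, DBA/2J minus AKR/J and DBA/2J minus C57BL/6J among controls, 3, 3 and 4 in the sleep-deprived, 3 for sleep deprivation over all strains and 1 in C57BL/6J. For strain by sleep deprivation, and for the time of day among controls, they gave 0. The alternative of only the compared groups was not run for comparisons that use all groups.

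The replicate numbers were not used to pair the samples in the main model. Control and sleep-deprived arrays of the same strain, time and replicate number were compared by their deviations from the group means. These correlated at -0.275 to 0.603 over 35 pairs of arrays, median 0.021, with 6 over 0.1. Some same-numbered arrays thus shared deviations, while most did so little or not at all. Detection calls were not used here, so a low signal was not set against background.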
